A study of Mus musculus with 16 samples.

Results

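The comparison described here is that of LPS-treated GM-CSF macrophages grown on untreated polystyrene dishes (GM-noTC-LPS) with those grown on tissue culture treated dishes (GM-TC-LPS). It used 4 of the 16 RNA-seq libraries, 2 per group, which were chosen by the dish, growth factor and treatment in their labels, and 12514 of the 22287 listed genes had enough counts to be tested. All cells were derived from bone marrow of C57BL/6J mice aged 8 weeks. They were cultured for 7 days with GM-CSF on TC or noTC dishes and then given LPS for 3 h. The other 12 libraries hold the same dishes without LPS (GM-TC and GM-noTC, steady state) and 4 groups raised with M-CSF, which serve below only to show where this comparison differs. The cells are a culture grown out of whole marrow under 1 growth factor, so the groups model neither a tissue macrophage nor a purified population, and the sources used here do not say whether replicates came from different mice.

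Treated polystyrene carries an oxidised, hydrophilic surface on which adherent cells spread, whereas untreated polystyrene stays hydrophobic and binds proteins and cells in another way. LPS, the outer membrane lipid of Gram-negative bacteria, is sensed by TLR4 and switches on NF-kB, MAPK and interferon pathways within hours. GM-CSF drives marrow progenitors to a mixed population of macrophages and dendritic-like cells that present antigen on MHC class II, and macrophages also secrete proteases and matrix proteins and adjust their glycolysis to oxygen and activation.

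Levels below are counts of a gene per 1000000 counts of its library, scaled with edgeR's TMM factors (CPM), and a fold change is that of noTC over TC on the log2 scale with its standard error (SE), from edgeR's quasi-likelihood test with Benjamini-Hochberg (BH) adjusted p. A gene was called upregulated or downregulated at an adjusted p under 0.05. The 4 libraries held 24064277, 26916532, 26566735 and 27820352 counts, and 3 counts equal 0.137 to 0.155 CPM, a floor that covers counting error only. The labelled cell type was checked with 15 macrophage markers, all of which were detected. They summed to 47339 and 46353 CPM in GM-TC-LPS and to 48535 and 49373 CPM in GM-noTC-LPS, and Lyz2, Csf1r and Cd68 did not pass the test, whereas 2 of the 15, Itgam (0.33) and Fcgr1 (0.40), were upregulated. In bulk RNA, fewer cells of a type and less RNA per cell cannot be told apart, here and in each result that follows. The study calls the 2 replicates of a group biological. The p-values rest on a spread between replicates that was estimated over all 16 libraries and partly shared between genes, not on these 4 libraries alone.

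Upon LPS challenge, 351 genes differed between the dishes, 2.8% of the genes tested. Of these, 260 (2.08%) were upregulated and 91 (0.727%) downregulated on noTC. These shares of all tested genes are the background for each list count below. Most differences were small, with a median fold of 1.36 among upregulated genes, and a median of 1.27-fold lower among downregulated genes. A fold above 2 was reached by 22 upregulated (0.176%) and 15 downregulated genes (0.12%). No called gene overlapped between the 2 groups of libraries, which also held for 45.4% of all tested genes. Just inside the threshold lay Gpr171 (0.48) and Stac2 (-0.26), with Stxbp3 (-0.22) and Apol7c (0.40) just outside. The number of calls depended on every library, falling to 135 without GM-TC-LPS replicate 1, 207 without GM-TC-LPS replicate 2, 164 without GM-noTC-LPS replicate 1 and 197 without GM-noTC-LPS replicate 2. Among 123 called genes that the naming rule covers, 62 kept the call in each of these 4 fits.

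**Figure D1:**
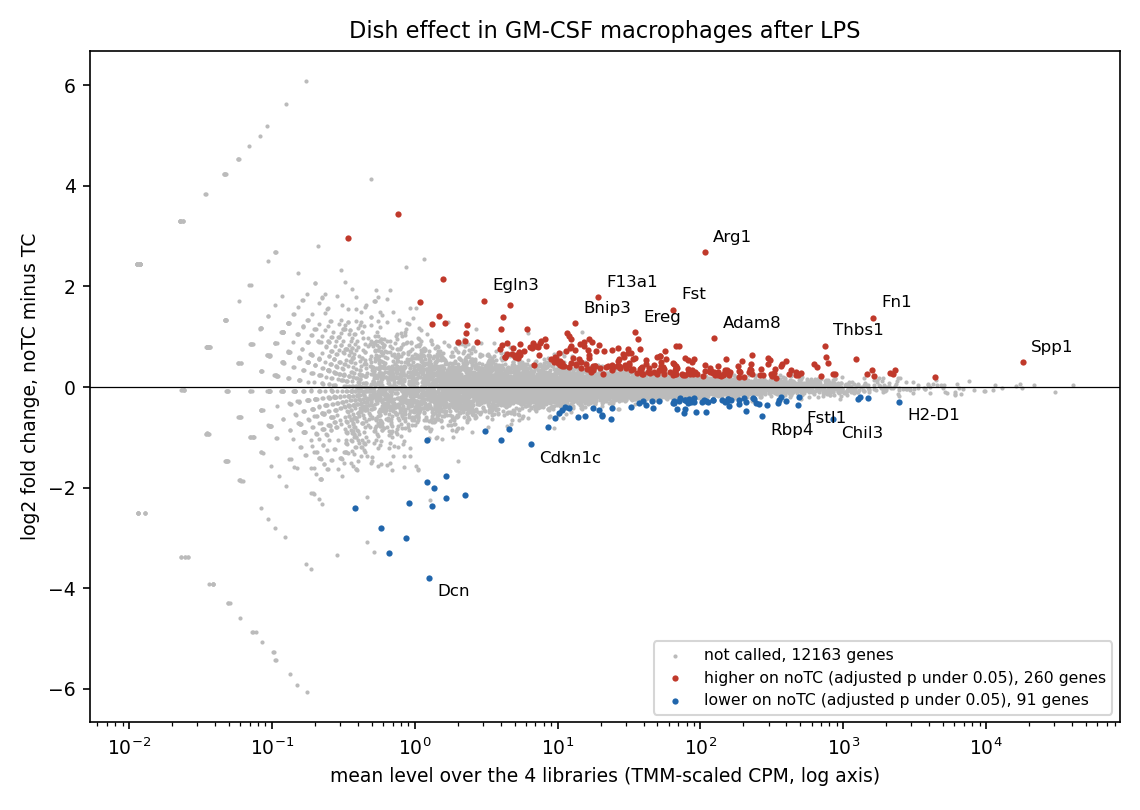
Log2 fold change of GM-noTC-LPS over GM-TC-LPS (vertical axis) against the mean level over the 4 libraries in TMM-scaled CPM (log axis), 1 point per tested gene. Red marks 260 upregulated, blue 91 downregulated and grey 12163 uncalled genes, and Arg1, Fn1 and Spp1 stand out above 0 at moderate to high levels.

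The gene with the smallest p was Arg1 (ENSMUSG00000019987), the arginase that turns arginine into ornithine and urea. It had 19.6 and 38.0 CPM in GM-TC-LPS and 207 and 165 CPM in GM-noTC-LPS. Both noTC libraries lay far above both TC libraries, although the TC libraries themselves differed, and the fold change was 2.68 (SE 0.15, adjusted p = 5.7e-10 from edgeR). No other of 16 tested genes of arginine, nitric oxide and polyamine metabolism was called, and their median fold change was -0.03, beside 0.003 over all tested genes.

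Secreted matrix proteins and growth factors were among the strongest increases, with 7 upregulated and 1 downregulated of 21 tested and a median fold change of 0.20. Fn1 (ENSMUSG00000026193), the matrix glycoprotein fibronectin that integrins bind, had 785 and 1000.1 CPM on TC and 2330.4 and 2327 CPM on noTC. The noTC replicates were nearly equal and far above the TC pair, with a fold change of 1.38 (SE 0.10, adjusted p = 1.1e-08 from edgeR). Thbs1, thrombospondin, an adhesive glycoprotein that activates TGF-beta, rose from 502 and 574 to 964 and 943 CPM (0.82, adjusted p = 1.6e-08 from edgeR). Spp1, osteopontin, a secreted phosphoprotein, rose from 15195 and 14841 to 20562 and 21748 CPM (0.49, adjusted p = 2.3e-05 from edgeR). Ereg, a ligand of the EGF receptor, rose from 20.5 and 24.4 to 48.1 and 47.5 CPM (1.09, adjusted p = 1.9e-05 from edgeR). Tgfbi, a matrix protein induced by TGF-beta, rose less, by 0.31, and Pdgfb, a growth factor for mesenchymal cells, by 0.59 at about 10 CPM. For none of these genes did the 2 groups overlap. The exception in direction was Gas6, the bridge between apoptotic cells and the receptor Mertk, at 27.7 and 29.8 CPM on TC and 16.3 and 20.8 CPM on noTC (-0.63, adjusted p = 0.00018 from edgeR). Pdgfb lost its call without any 1 of the 4 libraries and under library-size scaling.

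Outside this list, Fst (ENSMUSG00000021765), follistatin, which binds and blocks activins, rose from 29.5 and 35.9 to 97.5 and 93.0 CPM, a fold change of 1.54 (SE 0.09, adjusted p = 1.9e-09 from edgeR). F13a1, the coagulation factor that cross-links fibrin, rose from 6.83 and 10.2 to 29.5 and 29.8 CPM (1.79, adjusted p = 4.2e-08 from edgeR). Cfb, complement factor B, which forms the alternative pathway convertase, fell from 227 and 259 to 179.9 and 172 CPM (-0.47, adjusted p = 0.00083 from edgeR). In all 3 genes the noTC replicates lay on one side of both TC replicates.

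Among matrix proteases and the plasminogen system, 8 of 31 tested genes were upregulated and 3 downregulated, with a median fold change of 0.08. Adam8 (ENSMUSG00000025473), a membrane metalloprotease of leukocytes, had 89.1 and 80.5 CPM on TC and 163 and 170.2 CPM on noTC. Its replicates differed little and its groups were well apart, with a fold change of 0.97 (SE 0.06, adjusted p = 5.7e-10 from edgeR). The collagenase Mmp13 rose from 611 and 598 to 923 and 909 CPM (0.60, adjusted p = 9e-07 from edgeR). Mmp8, a collagenase best known from neutrophils, rose from 646 and 668 to 875 and 941 CPM (0.47, adjusted p = 2e-05 from edgeR).

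Serpinb2, the plasminogen activator inhibitor PAI-2, had 927 and 1053 CPM on TC and 1463 and 1462 CPM on noTC (0.56, adjusted p = 0.00011 from edgeR). F3, tissue factor, which starts coagulation, rose from 13.4 and 14.4 to 21.9 and 24.2 CPM (0.72, adjusted p = 0.00051 from edgeR). Mmp25 and Adamts4 were also upregulated, Mmp25 not without GM-TC-LPS replicate 2 or GM-noTC-LPS replicate 1. The downregulated members were the gelatinase Mmp2 (-0.43), its membrane-bound activator Mmp14 (-0.34) and Timp2, a binding partner of both. These 3 were not called without GM-TC-LPS replicate 1 or without GM-noTC-LPS replicate 1. Mmp2 also lost its call without replicate 2 of either group, and Mmp14 without GM-TC-LPS replicate 2. Mmp9, another gelatinase, was at 6.05 and 2.65 CPM on TC and 4.74 and 3.60 CPM on noTC, and did not pass (-0.04, SE 0.28, adjusted p = 0.97 from edgeR).

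Of the hypoxia response genes, 11 of 33 tested were upregulated and none downregulated, with 28 above 0 and a median fold change of 0.11. HIF transcription factors, which are kept low by prolyl hydroxylases when oxygen is present, bind DNA at a core of ACGTG or GCGTG. Only the ACGTG form was searched, and it is the core meant below. This core, read on both strands, stood in the 250 bases before the transcript start of 6 of the 8 upregulated members with a RefSeq promoter window and of 12 of 17 members that were not called. It occurred in 24.8% of 9906 tested genes with a window and in 16.6% of all 32851 windows, and a match is a description of the letters, not a site. The windows of Bnip3 (chr7:138909507-138909756, minus strand) and Egln3 (chr12:54203875-54204124, minus strand), the upregulated members with the largest fold changes, are shown 5′ to 3′ from the GRCm38.p6 assembly, with the core in capitals. In Bnip3 the core is part of a CACGTG, which holds ACGTG on either strand. The Bnip3 window also holds GCGTG, which is left in lower case.
Bnip3: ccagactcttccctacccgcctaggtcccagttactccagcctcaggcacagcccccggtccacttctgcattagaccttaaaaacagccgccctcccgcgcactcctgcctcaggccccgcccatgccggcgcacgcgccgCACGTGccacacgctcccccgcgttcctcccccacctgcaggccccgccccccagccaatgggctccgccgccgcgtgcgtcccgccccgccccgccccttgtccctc
Egln3: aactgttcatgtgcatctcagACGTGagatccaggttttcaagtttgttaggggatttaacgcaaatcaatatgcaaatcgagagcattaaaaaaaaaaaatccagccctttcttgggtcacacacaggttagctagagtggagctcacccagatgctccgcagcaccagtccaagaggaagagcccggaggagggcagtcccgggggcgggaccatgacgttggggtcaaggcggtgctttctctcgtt

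Bnip3, a mitochondrial protein that promotes mitophagy, had 7.03 and 8.40 CPM in GM-TC-LPS and 19.8 and 17.7 CPM in GM-noTC-LPS. The noTC libraries were both above the TC libraries, and the fold change was 1.27 (SE 0.12, adjusted p = 1.9e-06 from edgeR). Egln3, one of the prolyl hydroxylases and itself a HIF target, had low levels of 1.19 and 1.63 CPM on TC and 4.93 and 4.43 CPM on noTC, a fold change of 1.72 (SE 0.28, adjusted p = 0.00072 from edgeR). Vegfa, the main angiogenic factor, rose from 8.17 and 9.80 to 17.9 and 14.1 CPM (0.82, adjusted p = 0.00079 from edgeR). Ero1l, the oxidase that forms disulfide bonds in the endoplasmic reticulum, rose from 153 and 162 to 213 and 207 CPM (0.42, adjusted p = 4.5e-05 from edgeR). The groups did not overlap for these 4 genes or for the other upregulated members, among them Selenbp1, Fam162a, Mif, Trem1, Bhlhe40 and Hmox1. Left-out libraries reduced the count to between 8 and 10.

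Glycolysis, which HIF also controls, had 11 upregulated and 1 downregulated of 24 tested genes, with 20 above 0 and a median fold change of 0.19. The increases covered most steps of the pathway but were small. Gpi1, which converts glucose 6-phosphate to fructose 6-phosphate, rose from 309.5 and 323 to 431 and 433 CPM (0.45, adjusted p = 1.3e-05 from edgeR). Pkm, pyruvate kinase, rose from 1528 and 1512 to 1753 and 1804 CPM (0.23, adjusted p = 0.0024 from edgeR). Gapdh, often used as a reference gene, rose from 1991 and 2055 to 2383 and 2457 CPM (0.26, adjusted p = 0.0052 from edgeR).

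The remaining upregulated members were Pfkl, Pfkfb4, Tpi1, Pgk1, Eno1, Ldha, the lactate exporter Slc16a3 and Pdk1, which keeps pyruvate out of the TCA cycle. The hexokinase Hk3 was the downregulated member, at 251 and 255 CPM on TC and 211 and 223 CPM on noTC (-0.22, adjusted p = 0.014 from edgeR). This list depended on single libraries more than the hypoxia list did, with 2 members called without GM-TC-LPS replicate 1 and 7 without GM-noTC-LPS replicate 1. Pgk1, Tpi1, Eno1, Gapdh, Slc16a3 and Pdk1 lost the call in at least 1 such fit.

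**Figure D2:**
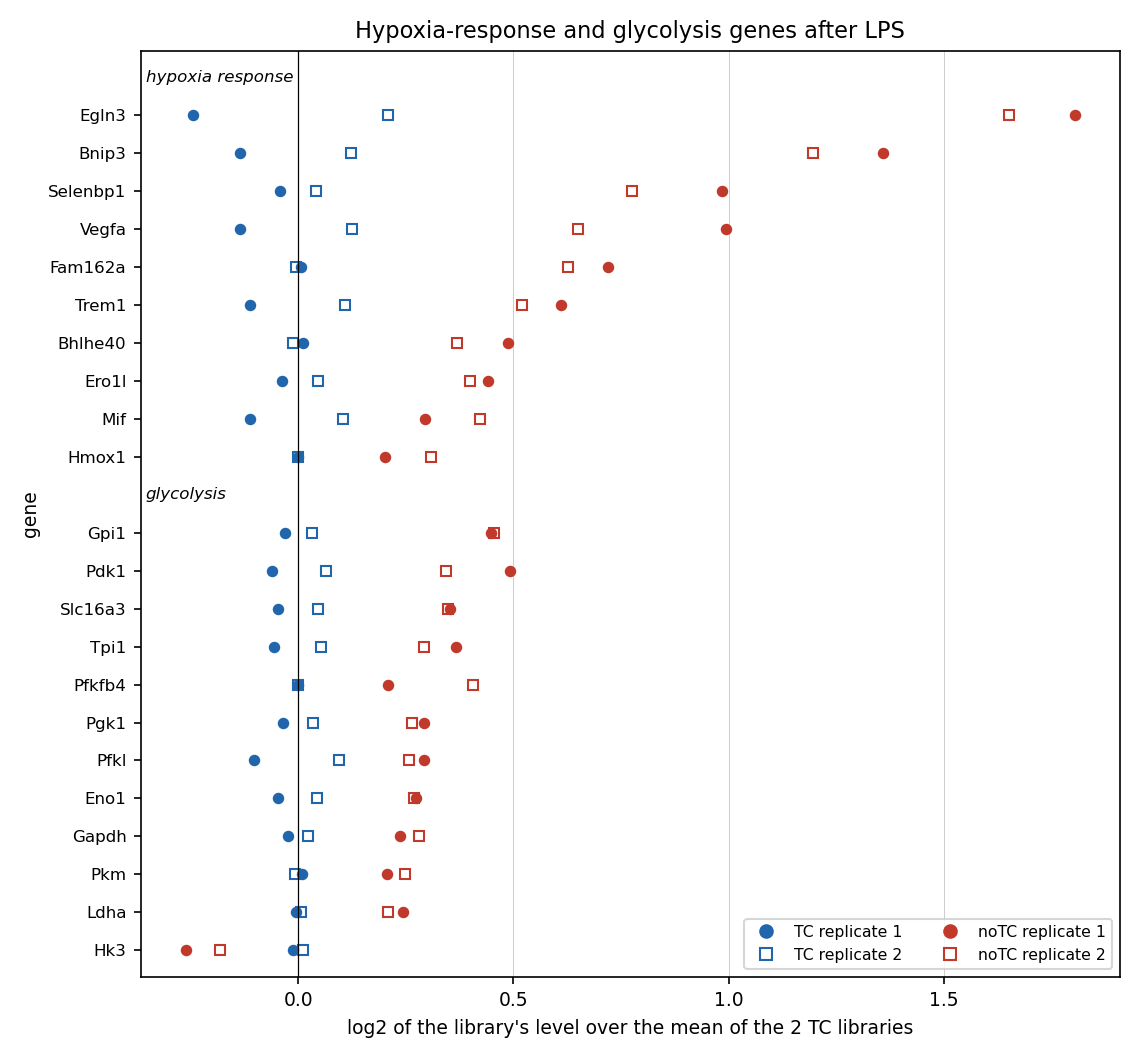
Level of each library divided by the mean of the 2 GM-TC-LPS libraries, as log2 (horizontal axis), for called hypoxia response and glycolysis genes. Blue marks TC and red noTC libraries, circles replicate 1 and squares replicate 2. All red points lie to the right of the blue points except those of Hk3, which lie to the left, and Egln3 and Bnip3 are farthest right.

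MHC class II genes shared the same direction, with 8 of 22 genes of the class II and costimulation list upregulated, none downregulated, 19 above 0 and a median fold change of 0.30. Class II promoters carry an X-Y module whose Y box contains a CCAAT sequence, read as CTGATTGG on the sense strand, and the module recruits the coactivator CIITA. The letters CTGATTGG, searched on both strands, were found in 2 of 4 upregulated members with a promoter window, 2 of 11 that were not called, 6.52% of tested genes and 3.83% of all windows. Those 2 windows, of H2-Eb1 (chr17:34305617-34305866, plus strand) and H2-Aa (chr17:34287824-34288073, minus strand), are shown as above because the motif begins at a similar distance from the start, 62 and 51 bases before it.
H2-Eb1: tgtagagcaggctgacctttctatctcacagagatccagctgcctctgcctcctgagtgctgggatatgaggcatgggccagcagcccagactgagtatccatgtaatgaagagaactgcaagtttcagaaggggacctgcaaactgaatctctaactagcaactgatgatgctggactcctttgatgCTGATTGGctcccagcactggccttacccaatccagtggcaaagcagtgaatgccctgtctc
H2-Aa: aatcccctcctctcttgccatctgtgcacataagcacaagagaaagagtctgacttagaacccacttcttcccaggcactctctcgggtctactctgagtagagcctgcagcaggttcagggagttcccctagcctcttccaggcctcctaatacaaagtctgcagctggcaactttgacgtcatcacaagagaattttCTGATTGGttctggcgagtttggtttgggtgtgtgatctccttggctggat

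H2-Eb1 (ENSMUSG00000060586), the beta chain of the class II molecule I-E, had 232 and 244 CPM in GM-TC-LPS and 368 and 338 CPM in GM-noTC-LPS. The noTC libraries exceeded the TC libraries, with a fold change of 0.57 (SE 0.07, adjusted p = 3e-05 from edgeR). H2-Ab1, the beta chain of I-A, rose from 322 and 335 to 494 and 440.4 CPM (0.51, adjusted p = 6e-05 from edgeR), and its alpha chain H2-Aa from 508 and 547 to 746 and 698 CPM (0.45, adjusted p = 0.00022 from edgeR). H2-DMb2, a chain of the peptide loading factor H2-M, rose from 11.7 and 12.8 to 23.1 and 22.3 CPM (0.89, adjusted p = 0.00013 from edgeR).

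Ciita, the class II transactivator itself, rose from 42.7 and 44.8 to 66.5 and 57.3 CPM (0.50, adjusted p = 0.00085 from edgeR). In each of these 5 genes noTC replicate 1 was the highest of the 4 libraries. Cd74, the invariant chain, had 1861 and 1995 CPM on TC and 2439 and 2261 CPM on noTC (0.29, adjusted p = 0.021 from edgeR). Cd83, a maturation marker that stabilises surface class II, rose by 0.41 and H2-Ob, a chain of H2-O, by 0.88. Without GM-TC-LPS replicate 1, 5 members passed, and Cd74, Cd83 and H2-Ob were those that lost the call there. Cd74 also lost it without GM-TC-LPS replicate 2 or GM-noTC-LPS replicate 1, and H2-Ob without any 1 of the 4 libraries and by DESeq2.

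**Figure D3:**
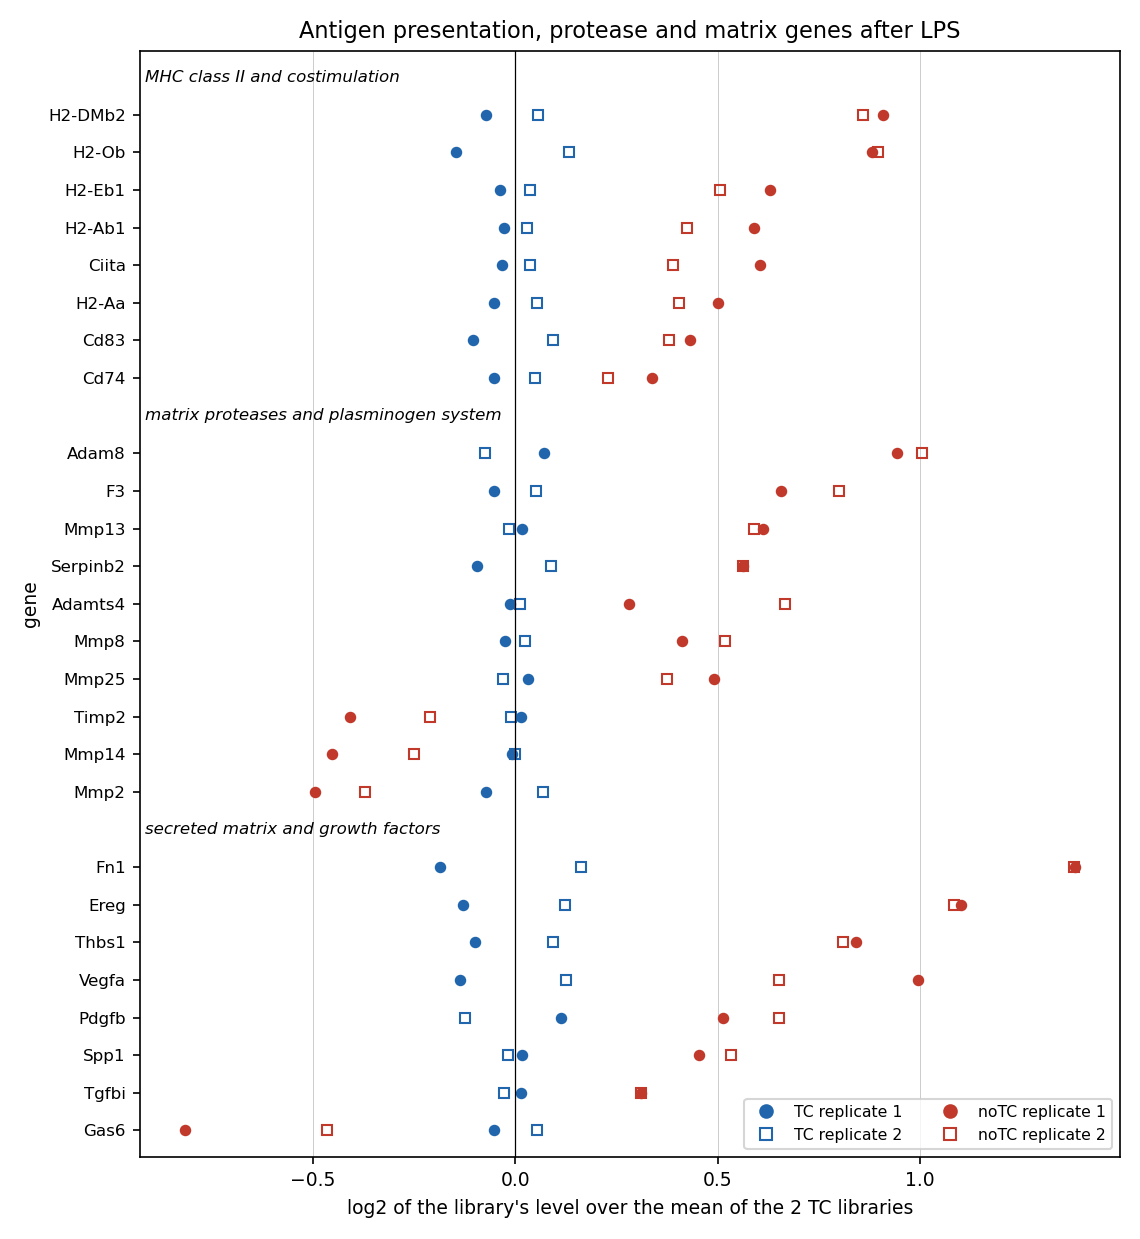
Level of each library divided by the mean of the 2 GM-TC-LPS libraries, as log2 (horizontal axis), for called members of the class II, protease and secreted matrix lists. Blue marks TC and red noTC libraries, circles replicate 1 and squares replicate 2. The red points of Timp2, Mmp14, Mmp2 and Gas6 lie to the left of the blue points and those of all other genes shown to the right.

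Of 15 tested dendritic cell markers, 3 were upregulated (Cd24a, Ccl22 and Ccl17) and none downregulated, with 13 above 0 and a median fold change of 0.31. The summed level of all 17 was 1964 and 2123 CPM on TC and 2697 and 2386 CPM on noTC. The chemokines Ccl22 and Ccl17 took most of the counts in that sum. The defining markers Zbtb46 (6.83 and 6.87 CPM on TC, 7.34 and 8.17 CPM on noTC) and Clec9a (9.98 and 9.19 CPM, 10.5 and 10.7 CPM) were not called, and Flt3 was below 1 CPM in all 4 libraries. Markers of neutrophils summed to 714 and 750.3 CPM on TC and 980.2 and 1025 CPM on noTC, nearly all of it Mmp8. Of the 10 tested, 9 lay above 0, with a median fold change of 0.32. S100a9, at 5.84 and 6.22 CPM on TC and 12.0 and 9.12 CPM on noTC, was the other called marker of 10 tested. Lcn2 (38.9 and 45 CPM on TC, 57.1 and 47.2 CPM on noTC) and Ngp (12.2 and 17.1 CPM, 16.1 and 12.6 CPM) were detected but not called, as were S100a8 and Ltf. Ly6g, Mpo, Elane and Cxcr2 were at or below 0.259 CPM in each of the 4 libraries. The part of dendritic cells or neutrophils in the results was not tested. Without GM-TC-LPS replicate 1 or without GM-noTC-LPS replicate 1, none of the 3 dendritic cell markers was called, and S100a9 lost its call in those 2 fits and without GM-TC-LPS replicate 2.

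CC chemokines and their receptors had 5 upregulated and 1 downregulated of 20 tested genes and a median fold change of 0.23. Cx3cl1, fractalkine, listed with them, rose from 14.0 and 17.7 to 26.9 and 25.4 CPM (0.72, adjusted p = 2e-04 from edgeR). The receptor Ccr1 rose from 98.8 and 91.5 to 118 and 120.4 CPM (0.32, adjusted p = 0.002 from edgeR). Ccl22 and Ccl17, both ligands of CCR4, rose from 1348 and 1469 to 1885 and 1689.9 CPM (0.34, adjusted p = 0.004 from edgeR) and from 241 and 264 to 387 and 302 CPM (0.45, adjusted p = 0.011 from edgeR). Ccl8 was called downregulated at levels under 1 CPM in all 4 libraries. All but Cx3cl1 lost the call in at least 1 fit without a library, and the members called numbered 2 without GM-TC-LPS replicate 1, 3 without GM-TC-LPS replicate 2 and 2 without GM-noTC-LPS replicate 1.

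Of 23 proinflammatory cytokine genes, a main output of LPS sensing, 2 were upregulated and none downregulated, with a median fold change of 0.06. Over all tested genes, 2.08% were upregulated. Il23a, the p19 subunit of IL-23, had 37.7 and 44.2 CPM on TC and 65.5 and 59.4 CPM on noTC, without overlap (0.61, SE 0.09, adjusted p = 0.00044 from edgeR). Tnfsf9, a costimulatory ligand, rose from 46.3 and 49.4 to 61.4 and 60.5 CPM (0.35, adjusted p = 0.0028 from edgeR), and without GM-TC-LPS replicate 1 it was not called (adjusted p = 0.094). Tnf was at 3202 and 3357 CPM on TC and 3331 and 3482 CPM on noTC, and its groups overlapped (0.05, SE 0.06, adjusted p = 0.79 from edgeR). Il6 was at 1951 and 2085 CPM on TC and 1957 and 1877 CPM on noTC (-0.07, SE 0.08, adjusted p = 0.78 from edgeR). Il1b, at 5946 and 6382 CPM on TC and 6399 and 6422 CPM on noTC, did not pass either (0.06, SE 0.06, adjusted p = 0.76 from edgeR). With an SE of 0.06 to 0.08, a difference of the size of that of Il23a would have exceeded the spread of these 3 genes, and smaller ones may not have.

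None of 15 CXC chemokine and receptor genes was called by edgeR over all libraries with the expression filter, with 5 at an unadjusted p under 0.05. DESeq2 called 2, edgeR on the 4 libraries 3 and edgeR without the filter 5. None of 22 genes of the TLR4 complex and its adaptors was called by edgeR or DESeq2, with 1 at an unadjusted p under 0.05. Cxcl3, a neutrophil attractant, came close at 1919 and 2054 CPM on TC and 2455 and 2331 CPM on noTC (0.27, SE 0.08, adjusted p = 0.064 from edgeR), and was called by edgeR without the filter, by edgeR on the 4 libraries alone and by DESeq2. Cd14, the LPS coreceptor, was at 1124 and 1202 CPM on TC and 1196 and 1242 CPM on noTC (0.07, adjusted p = 0.68 from edgeR). Among 27 NF-kB and MAPK feedback genes, 2 were upregulated, the phosphatase Dusp5 (0.55) and the IkB family member Bcl3 (0.34), with a median of 0. Interferon and interferon stimulated genes had 1 call of 48, near the 2.08% upregulated over all tested genes. It was Irf8, a transcription factor of the myeloid lineage, which rose from 113 and 123 to 147 and 146 CPM (0.31, adjusted p = 0.0028 from edgeR). The other members leaned slightly the other way, with 39 of 48 below 0 and a median of -0.06. Ifit2, for instance, had 2545 and 2664 CPM on TC and 2347 and 2275 CPM on noTC (-0.17, SE 0.07, adjusted p = 0.21 from edgeR), and was called without the expression filter and on the 4 libraries alone by edgeR and by DESeq2. Irf8 was not called without GM-TC-LPS replicate 1, nor was Bcl3 without that library or either GM-noTC-LPS replicate.

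Il1r2, the decoy receptor for IL-1, was the 1 anti-inflammatory gene called of 20 tested, at 3.83 and 3.76 CPM on TC and 8.48 and 8.44 CPM on noTC (1.16, SE 0.23, adjusted p = 0.0042 from edgeR). Among 19 eicosanoid genes, Alox5, which starts leukotriene synthesis, rose by 0.39 and Ptgs1, the constitutive cyclooxygenase, by 0.24. The call of each of these 3 genes was lost in at least 1 fit without a library.

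Of 30 tested genes in a list of scavenger, lectin and other surface receptors, 7 were upregulated and none downregulated, with a median fold change of 0.15. Of the 7, Treml2, Trem1 and Fcgr1 are neither scavenger nor lectin receptors. Trem1 was also counted with the hypoxia response genes and Fcgr1 with the macrophage markers. Olr1, the oxidised LDL receptor, had 251 and 250.4 CPM on TC and 369 and 357 CPM on noTC (0.53, SE 0.06, adjusted p = 8.6e-06 from edgeR). Clec4a2, an inhibitory lectin receptor, rose from 40.0 and 38.8 to 61.1 and 57.6 CPM (0.59, adjusted p = 0.00015 from edgeR). Colec12, a scavenger receptor with a lectin domain, rose from 61.6 and 72.0 to 95.0 and 98.4 CPM (0.53, adjusted p = 0.00016 from edgeR). The others were Treml2, Trem1, the fatty acid transporter Cd36 and the Fc receptor Fcgr1, and 4 members passed without GM-TC-LPS replicate 1 or without GM-noTC-LPS replicate 1. Of 26 genes of lipid handling, Lpl, the lipase that frees fatty acids from triglycerides, rose with Olr1 and Cd36, from 4093 and 4055 to 4663 and 4718 CPM (0.20, adjusted p = 0.0059 from edgeR). Without GM-TC-LPS replicate 1 only 1 of these 3 passed.

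Of 38 integrins and adhesion receptors, 4 were upregulated and 1 downregulated, and of 55 focal adhesion and cytoskeleton genes 1 was upregulated. Over all tested genes, 2.08% were upregulated and 0.727% downregulated, so the count of focal adhesion and cytoskeleton genes did not exceed that share. Itgam, the alpha chain of the complement receptor Mac-1, rose from 2020.1 and 2074 to 2521 and 2621 CPM (0.33, adjusted p = 2e-04 from edgeR). Itgb7, a beta chain of gut-homing integrins, rose from 22.4 and 27.5 to 39.7 and 40.5 CPM (0.68, adjusted p = 2.9e-05 from edgeR). Itgb3, the beta chain of the vitronectin receptor, fell from 24.8 and 24.5 to 18.5 and 14.7 CPM (-0.57, adjusted p = 0.0012 from edgeR). The groups of these 3 genes did not overlap, and Itgb3 lost its call without GM-noTC-LPS replicate 2. Gsn, gelsolin, which severs actin filaments, was the cytoskeletal gene called, at 191 and 202 CPM on TC and 251 and 250.1 CPM on noTC (0.35, adjusted p = 9e-05 from edgeR).

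The list of alternative activation genes had calls in both directions, with 3 upregulated and 2 downregulated of 19. Arg1 was counted with arginine metabolism above and is not among these 19. The lectin Mgl2 rose from 59.7 and 64.7 to 97.2 and 88.6 CPM (0.58, adjusted p = 0.00011 from edgeR). Cd200r1, an inhibitory receptor, rose from 44.7 and 45.5 to 58.8 and 61.3 CPM (0.41, adjusted p = 9.8e-05 from edgeR). Chil3, the chitinase-like protein Ym1, fell from 995 and 1075 to 715 and 616 CPM (-0.64, adjusted p = 4.5e-05 from edgeR). Plet1 fell by 0.35 on the log2 scale and Car4 rose by 0.25. Plet1 was not called without GM-TC-LPS replicate 2, and Car4 lost its call with library-size scaling, with DESeq2 on all libraries and without GM-TC-LPS replicate 1 or either GM-noTC-LPS replicate.

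Of 24 genes in the list of G1 cyclins and inhibitors, 2 were upregulated and 1 downregulated. Ccnd1, cyclin D1, which drives entry into S phase, rose from 6.83 and 4.32 to 10.7 and 10.8 CPM (0.96, adjusted p = 0.00048 from edgeR), and Cdkn1c, the cyclin-dependent kinase inhibitor p57, fell from 9.20 and 8.64 to 4.31 and 3.79 CPM (-1.14, SE 0.14, adjusted p = 3.6e-05 from edgeR). Ccnd2, cyclin D2, rose from 539.9 and 585 to 747 and 725 CPM (0.39, adjusted p = 0.0019 from edgeR) and was not called without GM-TC-LPS replicate 1. Of 35 mitosis genes, 7 were upregulated and 32 lay above 0, with a median of 0.24. Ncapd2, a condensin subunit, had the smallest p of these, at 11.7 and 11.1 CPM on TC and 18.3 and 15.2 CPM on noTC (0.56, adjusted p = 0.0048 from edgeR). Mitosis calls fell to 4 under library-size scaling and without GM-TC-LPS replicate 1, to 3 without GM-noTC-LPS replicate 2 and to 0 without GM-TC-LPS replicate 2 or GM-noTC-LPS replicate 1. With the expression filter no DNA replication gene of 35 was called by edgeR or DESeq2, with 12 at an unadjusted p under 0.05, 28 above 0 and a median of 0.13, and without the filter edgeR called 5.

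Further downregulated genes came from several functions. Fstl1, a secreted follistatin-like glycoprotein, fell from 535 and 539 to 414 and 427 CPM (-0.35, adjusted p = 0.00018 from edgeR). Pmp22, a membrane protein of myelin, fell from 91.1 and 89.6 to 67.4 and 66.2 CPM (-0.44, adjusted p = 0.00018 from edgeR). Rbp4, the plasma carrier of retinol, fell from 347 and 296 to 193 and 239 CPM (-0.57, adjusted p = 0.00037 from edgeR). Both noTC libraries were below both TC libraries in each. Cp, the ferroxidase ceruloplasmin, had a fold change of -0.51, Dio2, which activates thyroid hormone and was not called without replicate 1 of either group, -0.50, and Phgdh, the entry enzyme of serine synthesis, -0.39. H2-D1, a classical MHC class I gene, went against the class II genes, at 2726 and 2691 CPM on TC and 2149 and 2286 CPM on noTC (-0.29, SE 0.05, adjusted p = 0.0011 from edgeR). Class I genes share long stretches of sequence, so their reads may be split between paralogs, as may those of Trim30c, which fell from 104 and 116 to 77.3 and 77.5 CPM (-0.50, adjusted p = 0.00026 from edgeR).

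Fibroblast and stromal markers held 10 of the downregulated calls and 1 upregulated call among 28 tested, with a median fold change of -0.49. Most were close to the floor. Dcn, decorin, a proteoglycan of connective tissue, was at 3.72 and 0.975 CPM in GM-TC-LPS and at 0.142 and 0.182 CPM in GM-noTC-LPS, and Col1a1, collagen I, at 3.21 and 1.16 CPM and at 0.474 and 0.593 CPM. GM-TC-LPS replicate 1 was the highest library for both genes, and without it 1 stromal marker was upregulated and 1 downregulated. Without GM-TC-LPS replicate 2, 1 was upregulated and 9 downregulated, whereas 2 calls in all were left without GM-noTC-LPS replicate 1 and 3 without GM-noTC-LPS replicate 2. The 31 stromal markers with a mean under 10 CPM summed to 112 and 83.7 CPM on TC and to 71.1 and 70.9 CPM on noTC. The part of stromal cells in the other differences was not tested.

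The same dishes without LPS used other libraries, so calls could be set side by side. At steady state 944 genes were called (7.54%), 587 up (4.69%) and 357 down (2.85%). Of the 260 genes upregulated after LPS, 151 were also upregulated at steady state, 58.1% of the first list and 25.7% of the second, and 1 was downregulated there. Of the 91 downregulated genes, 41 were also downregulated at steady state, 45.1% and 11.5% of the lists. The sign was shared by 242 of 260 and 83 of 91 genes, while the share over all tested genes was not counted. Striated muscle markers summed to 58.4 and 31.2 CPM in the GM-TC steady state libraries and to 1.14 and 1.48 CPM in GM-noTC. In the M-CSF libraries on TC without LPS they summed to 82.8 and 46.1 CPM, and in the 4 LPS libraries to between 1.24 and 1.75 CPM. The number of steady state calls depended on which library was left out. The part of muscle RNA in the steady state values was not tested.

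Arg1 showed nearly the same dish effect in both states, with 54.1 and 51.9 CPM in GM-TC and 275 and 275 CPM in GM-noTC, a fold change of 2.38 beside 2.68 after LPS, and the difference of 0.30 did not pass (SE 0.21, adjusted p = 0.73 from edgeR). Fn1 had 391 and 293 CPM in GM-TC and 1106 and 1075 CPM in GM-noTC, and its difference also did not pass (-0.29, SE 0.14, adjusted p = 0.55 from edgeR). Fst was at 1.41 and 0.926 CPM in GM-TC and 2.89 and 2.96 CPM in GM-noTC, far below its levels after LPS on either dish. The difference between its 2 dish effects was 0.19 (SE 0.28, adjusted p = 0.91 from edgeR).

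A change of the dish effect with LPS was called for 98 genes (0.783%), 24 above 0 (0.192%) and 74 below 0 (0.591%), of which 15 were among the 351. The 98 calls became 533 without GM-TC replicate 1, 60 without GM-TC-LPS replicate 1 or 2, 59 without GM-noTC or GM-noTC-LPS replicate 1, and 50 without GM-noTC replicate 2. Among these 15, the dish effect after LPS minus that at steady state was above 0 for 9 and below 0 for 4 upregulated genes, and below 0 for both downregulated genes. Serpinb2 had 4.24 and 4.79 CPM in GM-TC and 15.2 and 17.3 CPM in GM-noTC, a fold change of 1.84, which was larger than the 0.56 after LPS by 1.28 (adjusted p = 9.1e-05 from edgeR). Plet1 had 38.6 and 45.6 CPM in GM-TC and 51.9 and 47.4 CPM in GM-noTC (0.23), against -0.35 after LPS, a difference of -0.58 (adjusted p = 0.0035 from edgeR). Bhlhe40, a transcription factor, was at 312 and 319 CPM in GM-TC and 329.5 and 320.2 CPM in GM-noTC, and was called in the LPS libraries but not there (difference 0.39, adjusted p = 0.017 from edgeR). The call of the difference was lost without GM-noTC replicate 1 for Plet1 (adjusted p = 0.065 from edgeR) and for Bhlhe40 (adjusted p = 0.052 from edgeR), which also lost it in 4 further fits without a library. Serpinb2 kept it in all of them.

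Several cytokine and interferon genes that were not called after LPS were called at steady state. Il6 was at 0.303 and 0.201 CPM in GM-TC and 6.03 and 7.5 CPM in GM-noTC, and the dish effects of the 2 states differed by -4.83 (adjusted p = 2e-08 from edgeR). Cxcl10 was at 0.353 and 0.685 CPM in GM-TC and 29.3 and 26.9 CPM in GM-noTC, beside 3758 and 3932 CPM in GM-TC-LPS and 3972 and 3922 CPM in GM-noTC-LPS. Their steady state levels on noTC were thus a small part of their LPS levels. In GM-TC both genes rested on few counts, as 3 counts equal 0.151 and 0.121 CPM there. The sizes of their differences are therefore uncertain. Leaving out genes whose steady state level on noTC was under 5% of that after LPS, a limit chosen after seeing the data, left 146 of 248 upregulated and 40 of 88 downregulated genes shared.

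**Figure D4:**
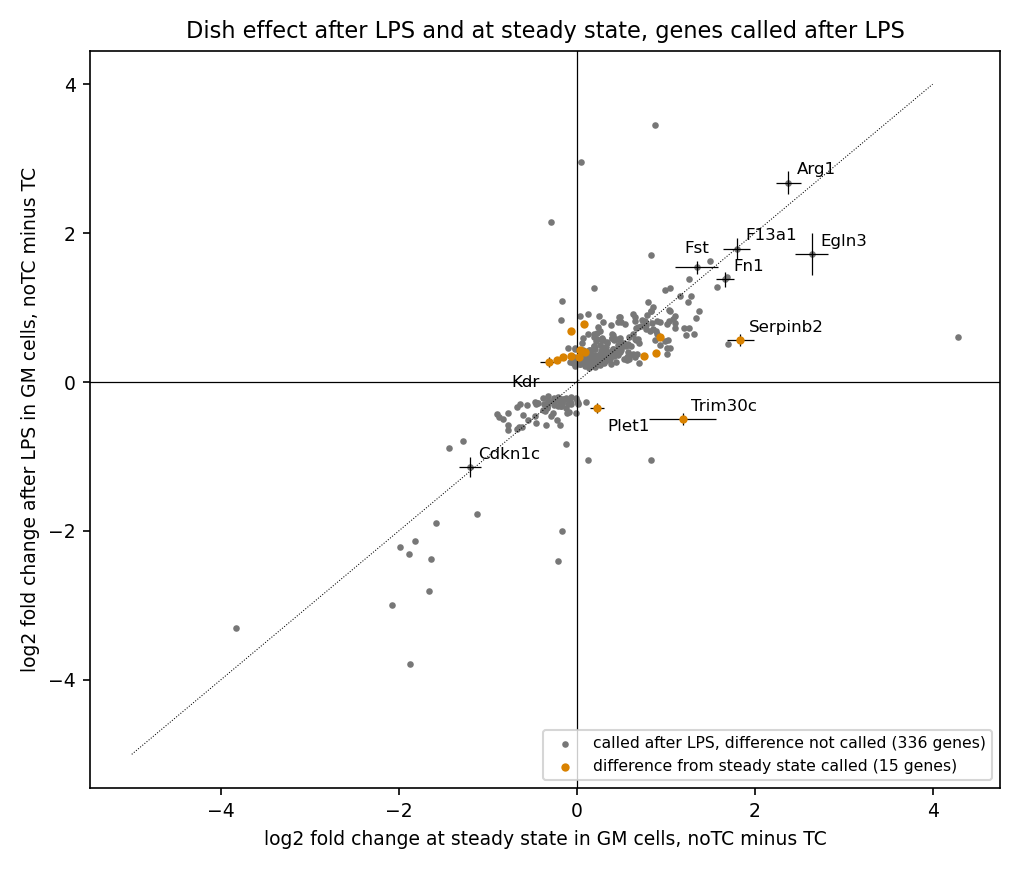
Log2 fold change of noTC over TC after LPS (vertical axis) against that at steady state (horizontal axis) for the 351 genes called after LPS in GM cells. Orange marks 15 genes whose 2 dish effects differed, bars on named genes are 1 SE, and the dotted line marks equal effects. Most points lie in the upper right and lower left, with Trim30c and Plet1 in the lower right.

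In M-CSF macrophages the dish effect after LPS was wider, with 2917 genes called (23.3%), 1298 up (10.4%) and 1619 down (12.9%). The share of upregulated calls there was 44.5% with TMM factors and 70.5% with library-size scaling, so directions in M cells depend on scaling for many genes. The M calls numbered 1925 without M-TC-LPS replicate 1 and 1697 without M-noTC-LPS replicate 1. Of the 260 genes upregulated in GM cells, 100 were upregulated in M cells (38.5% and 7.7% of the lists), and of the 91 downregulated genes 31 were downregulated (34.1% and 1.91%). The dish effect differed between GM and M cells for 1324 genes (10.6%), 860 above 0 (6.87%) and 464 below 0 (3.71%), among them 136 of the 351. With library-size scaling 471 lay above 0 and 962 below, and with TMM factors the difference was called for 842 without GM-TC-LPS replicate 1 and 850 without M-noTC-LPS replicate 1. Opposite calls, with the difference also called, were found for 46 genes upregulated and 15 downregulated in GM cells, and for 29 and 21 with library-size scaling.

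Mmp13, for example, had 1466 and 1619.8 CPM in M-TC-LPS and 866 and 922 CPM in M-noTC-LPS, a fold change of -0.79 beside 0.60 in GM cells (difference 1.39, adjusted p = 3.3e-10 from edgeR). Vegfa had 18.1 and 14.6 CPM in M-TC-LPS and 9.65 and 11.6 CPM in M-noTC-LPS (-0.63 beside 0.82 in GM cells, difference 1.45, adjusted p = 2e-05 from edgeR). H2-Ab1 was lower in M cells and fell there from 62.0 and 58.5 to 42.1 and 45.0 CPM (-0.47, difference 0.98, adjusted p = 1.2e-06 from edgeR). Cdkn1c, which fell in GM cells, rose in M cells from 15.6 and 13.7 to 21.6 and 20.7 CPM (0.53, difference -1.67, adjusted p = 1.3e-06 from edgeR). These 4 directions were kept under library-size scaling.

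Arg1 was at 1.03 and 0.814 CPM in M-TC-LPS and 0.770 and 0.599 CPM in M-noTC-LPS, and did not pass there. Adam8 and Ccnd1 were upregulated in both. Adam8 had 279 and 272 CPM in M-TC-LPS and 399.5 and 370.4 CPM in M-noTC-LPS (0.48), a smaller effect than in GM cells (difference 0.49, adjusted p = 0.00019 from edgeR). Ccnd1 rose by 1.77 in M cells, a larger effect than in GM cells (difference -0.81, adjusted p = 0.0073 from edgeR).

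**Figure D5:**
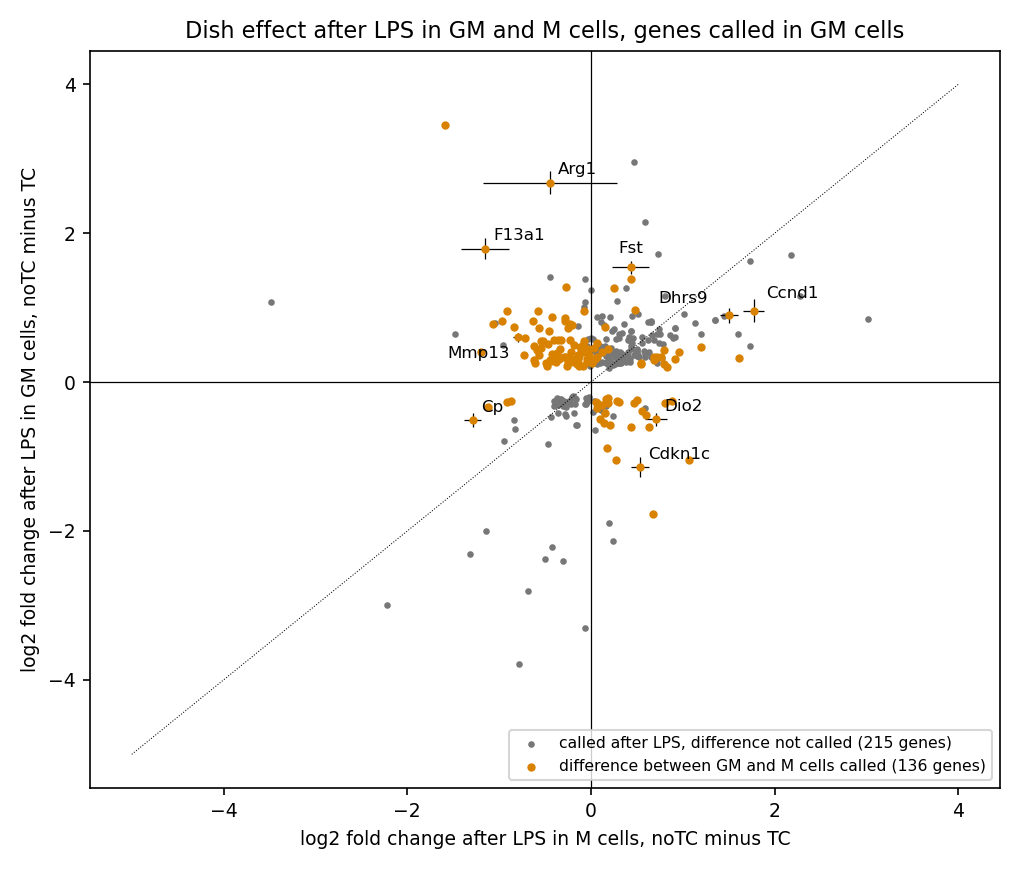
Log2 fold change of noTC over TC after LPS in GM cells (vertical axis) against that in M cells (horizontal axis) for the 351 genes called in GM cells. Orange marks 136 genes whose effects differed between GM and M cells, bars on named genes are 1 SE, and the dotted line marks equal effects. Mmp13 and F13a1 lie in the upper left, and Cdkn1c and Dio2 in the lower right.

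Other groups are given here with their calls in GM cells after LPS, beside 2.8% called over all tested genes. Cholesterol and fatty acid synthesis (31 tested) and lysosome genes (34 tested) had no call by edgeR over 16 libraries with filter and TMM factors. Their medians were 0.06 and -0.03, with 8 and 6 genes at an unadjusted p under 0.05. With DESeq2 size factors or a replicate block edgeR called 1 and 0, and with library size only 0 and 1. DESeq2 on all libraries called 1 and 0, edgeR on the 4 libraries 0 and 1, and edgeR without the filter 2 and 0. The lysosomal protease Ctsd, for instance, was at 18396 and 17652 CPM on TC and 17188 and 18291 CPM on noTC. Of 26 one-carbon and ATF4 genes, Mthfd1l was upregulated and Phgdh downregulated, and of 23 NRF2 genes Hmox1, heme oxygenase, was upregulated (0.26) and Srxn1, sulfiredoxin, downregulated (-0.25). In the list of itaconate and TCA cycle genes, 1 of 21 was called, Idh1 (0.33). It encodes a cytosolic isocitrate dehydrogenase, which is not part of the cycle. Hmox1 and Cp were the called members of 18 iron genes, and the clock output factor Tef (-0.46) was that of 15 circadian genes. Hmox1 lost its call without any 1 of the 4 libraries, Srxn1 without GM-TC-LPS replicate 1 or either GM-noTC-LPS replicate, Mthfd1l without GM-TC-LPS replicate 1 or GM-noTC-LPS replicate 2, and Tef without replicate 1 of either group. Of 40 macrophage lineage factors, Irf8, Bhlhe40, Jund and Nr4a3 were upregulated and Jun downregulated, with a median of 0.05. Without GM-TC-LPS replicate 1 Irf8, Jund, Nr4a3 and Jun were not called, and Jund and Jun also lost their calls without other libraries.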

How the data were processed

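The deposited table holds expected counts per gene, without normalization, made by the authors from RNA-seq of 16 libraries in 8 groups of 2. The submitters' processing notes name fastp 0.18.0, Bowtie2 2.2.8, HISAT2, StringTie 1.3.1, RSEM, DESeq2 and edgeR, and the genome build is not given in the sources used here. Reads shared by near-identical genes are split by such estimates, and 6.82% to 7.41% of the values of the 4 libraries were not whole. The values were rounded to whole counts. Columns were matched to samples by the labels' titles.

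Genes were filtered with edgeR's filterByExpr by group, scaled with TMM factors (0.788 to 0.804 in the 4 libraries) and fitted with edgeR 4.0.16 (quasi-likelihood test, R 4.3.3, limma 3.58.1) over all 16 libraries with group as the only term. The biological coefficient of variation was 4.75%. Contrasts were noTC minus TC after LPS in GM cells, the same at steady state and in M cells, and the 2 differences between them. Total counts were 17527802 to 31458363 per library.

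The genes named were the 15 per direction with the smallest adjusted p at 1 CPM or more without overlap, up to 8 called members of each of 42 gene lists, genes that the study names for this comparison, and up to 3 of the most abundant members of lists without a call. Timp2, Adamts4, Fam162a, Mif, Pfkl, Pfkfb4, Ldha, Hk3, threshold genes, cell type markers and those in the closing observations were added after their values were seen. The comparison, members and lists were chosen with earlier results of these data known. Alternatives were DESeq2 size factors or library size only, no filter, a replicate block, each library left out, edgeR or DESeq2 1.42.0 on the 4 libraries, DESeq2 on all 16, and unadjusted p with fold limits. With a library left out, its group has 1 library, which is assumed to vary like the other groups. A few genes are not reported here. Scripts were tested on simulated counts. Promoter sequences came from RefSeq (GRCm38.p6) and matched 9906 of 12504 tested symbols, and windows of H2-Ab1, Ciita and Cd74 were not used here.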

Additional observations from a re-analysis of the deposited data

Results flagged for a closer look

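These results drew attention because the dish effect differed between 2 states or 2 growth factors by a test of the difference itself, and no explanation is offered for them. Among the 351 genes called after LPS in GM cells, 15 had a dish effect that differed from that at steady state and 136 one that differed from that in M cells, both at an adjusted p under 0.05 from edgeR.

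The dish effect after LPS minus that at steady state was above 0 for 5 named genes called after LPS, with Kdr at 0.58, Ccl22 at 0.49, Bhlhe40 at 0.39, Cd200r1 at 0.32 and Idh1 at 0.30. For the other 6 it was below 0, with Trim30c at -1.69, Serpinb2 at -1.28, Plet1 at -0.58, Ccnd2 at -0.51, Slc16a3 at -0.41 and Mmp13 at -0.35. Only Serpinb2 among these 11 kept the call of the difference without each library in turn. Trim30c was at 0.303 and 0.564 CPM in GM-TC and at 1.06 and 0.998 CPM in GM-noTC, close to the floor of 3 counts in GM-TC.

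In 11 named genes not called after LPS the difference was below 0 throughout. It was -5.65 for Cxcl10, -4.83 for Il6, -2.13 for Ifit1, -2.10 for Cxcl2, -1.87 for Il1b, -1.63 for Ifit2, -1.61 for Tnf, -1.38 for Ifit3, -1.16 for Ccl2, -1.11 for Cxcl3 and -1.04 for Ccl5. For instance, Tnf was at 8.23 and 9.91 CPM in GM-TC and 25.8 and 32 CPM in GM-noTC, beside 3202 to 3482 CPM in the LPS libraries. Cxcl10 and Il6 rested on few counts in GM-TC, so the sizes of their differences are uncertain.

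Opposite calls in GM and M cells after LPS were seen for 21 named genes. The effect in GM minus that in M cells was above 0 for 17 of them, led by F13a1 (2.94), Vegfa (1.45), Mmp13 (1.39), Clec4a2 (1.31) and Selenbp1 (1.31). It was 1.10 for Thbs1, 1.02 for Igfbp4, 0.97 for Cx3cl1, 0.93 for Serpinb2, 0.86 for Hmox1, 0.63 for Fcgr1, 0.63 for Bcl3 and 0.60 for Idh1. The 4 class II genes H2-Ab1 (0.98), H2-Eb1 (0.97), H2-Aa (0.79) and Cd74 (0.74) were among them. It was below 0 for Cdkn1c (-1.67), Dio2 (-1.21), Pmp22 (-1.03) and Phgdh (-0.95). All 21 kept their direction in M cells with library-size scaling, where Thbs1, Serpinb2, Cx3cl1, Selenbp1, Fcgr1 and Bcl3 were no longer called in M cells.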

How the results depend on the processing

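The direction of the dish effect after LPS was kept for all 123 called genes that the naming rule covers under every alternative that was run. A reversal was hardly possible, because no called gene overlapped between the groups and the TMM factors of the 4 libraries were alike (0.788 to 0.804). The number of calls moved. The 351 calls became 358 with DESeq2 size factors, 336 with library size only, 327 with DESeq2 on all 16 libraries and 299 with DESeq2 on the 4 libraries. They rose to 557 (418 up, 139 down) without an expression filter and to 529 (343 up, 186 down) with edgeR on the 4 libraries, and were 145 (70 up, 75 down) at an unadjusted p under 0.05 and a fold change above 2. The cause of these moves was not tested. Of the 351 genes, 311 were still called with library size only, 297 with DESeq2 on all 16 libraries and 235 with DESeq2 on the 4 libraries.

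Leaving out 1 library at a time, which also leaves its group with 1 library, gave 135 to 207 calls after LPS, 419 to 2007 at steady state, 1697 to 2173 in M cells, 50 to 533 for the difference between LPS and steady state and 842 to 1159 for that between GM and M cells. The number of steady state calls was 329 with edgeR and 313 with DESeq2 on its 4 libraries, 342 at a fold change above 2 and 594 above 1.5. In M cells it was 1819 with DESeq2 on the 4 libraries, 354 at a fold change above 2 and 916 above 1.5. Without an expression filter, 227 genes passed the difference between LPS and steady state. The share of upregulated calls for the difference between GM and M cells was 65.0% with TMM factors and 32.9% with library size only. A total of 186 genes shared between LPS and steady state under the 5% limit chosen after seeing the data stood beside 192 without it.

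The labels number the replicates 1 and 2 in each group, and nothing ties a number to a mouse or batch. Deviations of same-numbered libraries from their group means correlated at -0.024 over 12514 genes and 2 pairs, so the numbers were not taken as pairing. With a replicate block 338 genes were called after LPS (251 up, 87 down), 328 of them among the 351. The block gave 935 calls at steady state, 2916 in M cells, 97 for the difference between LPS and steady state and 1307 for that between GM and M cells. With 2 libraries a group, an exact permutation test of 1 gene cannot give a two-sided p below 0.333. Genes at a few CPM, such as Dcn, Col1a1, Ccl8 and H2-Ob, rest on few counts.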

Other observations

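The following genes were chosen after their values were seen, so their calls are descriptions. The MHC class I gene H2-K1 had 1389 and 1386 CPM in GM-TC-LPS and 1187 and 1241 CPM in GM-noTC-LPS (-0.19, adjusted p = 0.037 from edgeR), and H2-Q4 had 96.6 and 97.0 CPM and 82.7 and 85.0 CPM (-0.21, adjusted p = 0.041 from edgeR). Nlrc5, the transactivator of class I genes, had 223 and 237 CPM on TC and 188 and 189 CPM on noTC (-0.29, adjusted p = 0.011 from edgeR). No group of libraries overlapped with the other for these genes, and the paralogs share reads.

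Ly6c2 had 43.1 and 54.3 CPM in GM-TC-LPS and 91.0 and 79.8 CPM in GM-noTC-LPS (0.81, adjusted p = 0.00011 from edgeR), and at steady state it had 12.4 and 15.2 CPM in GM-TC and 15.1 and 19.0 CPM in GM-noTC. Ifitm6 had 18.4 and 20.8 CPM on TC and 34.0 and 32.9 CPM on noTC after LPS (0.77, adjusted p = 2.8e-05 from edgeR). The coagulation factor F5 rose from 26.6 and 28.9 to 40.2 and 42.8 CPM (0.58, adjusted p = 0.00042 from edgeR), as F3 and F13a1 did. Tlr9, the receptor for CpG DNA, rose from 17.9 and 18.0 to 30.2 and 29.9 CPM (0.74, adjusted p = 4.9e-05 from edgeR). Casp1, the protease that matures IL-1beta, fell from 160 and 166 to 135 and 131 CPM (-0.30, adjusted p = 0.012 from edgeR).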
